A study of Mus musculus with 14 samples.

Results

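The glypicans and syndecans are the main heparan sulfate proteoglycans anchored in cell membranes, and the mouse has 10 genes for them, Gpc1 to Gpc6 and Sdc1 to Sdc4. They were chosen on their gene symbols, with glypican-1 included as a known ligand of the amyloid precursor protein, and the choice was made with their differences between the genotypes below already known. All 10 symbols were among the 55291 rows of the count tables. 9 of them were measured well enough to be tested, out of 22150 tested genes, and the remaining member, Gpc2, was almost without counts.

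The data are RNA sequencing counts from isolated dentate gyri of mouse organotypic cultures, slices of hippocampus with the entorhinal cortex still attached that are kept alive on a dish. 8 libraries came from APPko cultures, which carry a gene-targeted disruption of App on both alleles (APP-/-) that the labels tie to no single cell type, and 6 came from wildtype C57BL/6J cultures (APP+/+). Slices from pups of postnatal day 4 or 5 were kept for 18 days or longer with no treatment named in the labels, and each library held polyadenylated RNA of a single dentate gyrus with its neurons and glia. Whether some cultures came from the same animal is not labelled, and p-values then reflect the spread between cultures. In such mixed tissue fewer cells of a type and less RNA per cell cannot be told apart.

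Total counts lay between 20298058 and 31031126 in APPko libraries and between 16686909 and 29713323 in wildtype libraries. App itself averaged 214 ± 17.9 CPM (counts scaled to library size and composition, the unit of all levels here) in APPko libraries and 809 ± 131 CPM in wildtype libraries (SD, n = 8 and 6), with no overlap. Prox1, a transcription factor that defines dentate granule cells, had 107 to 207 CPM in APPko libraries and 106 to 200 CPM in wildtype libraries. Prox1 does not stand for all granule cell markers. Of 12 such markers, 11 had a negative log2 change and 1 a positive one. Their summed level was 845 ± 142 CPM in APPko libraries and 1171 ± 214 CPM in wildtype libraries. Wildtype libraries 2 and 3 stood apart in composition, with scaling factors of 0.852 and 0.847 where every other library had at least 0.976. The column headers end in f or m, and the levels of Xist and Y-linked genes went with that suffix in 10 of 10 f and 4 of 4 m libraries. APPko held 7 f libraries and 1 m library, while wildtype held 3 f libraries (1 to 3) and 3 m libraries (4 to 6), so the genotypes differ in this mix and both libraries that stood apart carry f. The changes of Gpc1, Gpc4 and several other genes are given with and without these libraries. Levels, sums over families and lists, and most correlations are given over all libraries only.

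Glypicans are held on the outer cell surface by a lipid anchor and can be shed, whereas syndecans span the membrane and end in a short tail that binds PDZ proteins such as syntenin and CASK. Both carry long heparan sulfate chains, which are started on serines of the core protein, extended by the exostosins Ext1 and Ext2 and then sulfated in patterns that set which ligands bind. In the hippocampus these proteins are known from synapse formation: Gpc4 and Gpc6 are released by astrocytes in mouse, Gpc4 binds the synaptic adhesion protein LRRTM4 and the receptor phosphatase encoded by Ptprs, and syndecan-2 promotes the maturation of dendritic spines.

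Levels can be compared between genes only per length, so they are given as CPM per kilobase of annotated exon. Sdc4, a widely expressed syndecan known from cell adhesion sites, was highest by this measure, at 79.1 ± 11.8 CPM per kilobase in APPko libraries and 57 ± 13.4 in wildtype libraries (SD, n = 8 and 6). Sdc2 followed with 24.4 ± 2.72 in APPko libraries and 23.4 ± 4.47 in wildtype libraries. Gpc4 was the highest glypican, at 11.4 ± 1.09 CPM per kilobase in APPko libraries and 16.5 ± 3.40 in wildtype libraries. Sdc4, Sdc2 and Gpc4 thus held the first 3 places in both genotypes, although the ranges of Sdc2 and Gpc4 overlapped in wildtype libraries.

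The next group lay several fold lower. Sdc3, the syndecan best known from the nervous system as a receptor of pleiotrophin, had 3.83 ± 0.62 CPM per kilobase in APPko libraries and 3.04 ± 0.58 in wildtype libraries. Gpc5 averaged 2.50 ± 0.34 in APPko libraries and 2.69 ± 0.42 in wildtype libraries, and Gpc6 averaged 1.92 ± 0.30 in APPko libraries and 1.78 ± 0.29 in wildtype libraries. Sdc3 and Gpc5 did not overlap in APPko libraries but did in wildtype libraries, and Gpc5 and Gpc6 overlapped in both. The order of Sdc3 and Gpc5 depends on which length is used: with the longest transcript in place of all exons, the wildtype level was 4.22 CPM per kilobase for Gpc5 and 3.66 for Sdc3.

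At the low end were Gpc1, Gpc3 and Sdc1. Gpc1 had 1.57 ± 0.32 CPM per kilobase in APPko libraries and 0.552 ± 0.38 in wildtype libraries. Gpc3, an X-linked glypican that restrains Hedgehog signalling, had 0.590 ± 0.26 in APPko libraries and 0.863 ± 0.32 in wildtype libraries. Sdc1, which is typical of epithelia and plasma cells, had 0.548 ± 0.10 in APPko libraries and 0.499 ± 0.066 in wildtype libraries. Gpc1 was therefore the 7th of the 10 genes in APPko libraries and the 8th in wildtype libraries, where the ranges of Gpc3 and Gpc1 overlapped, as did those of Gpc1 and Sdc1.

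**Figure D1:**
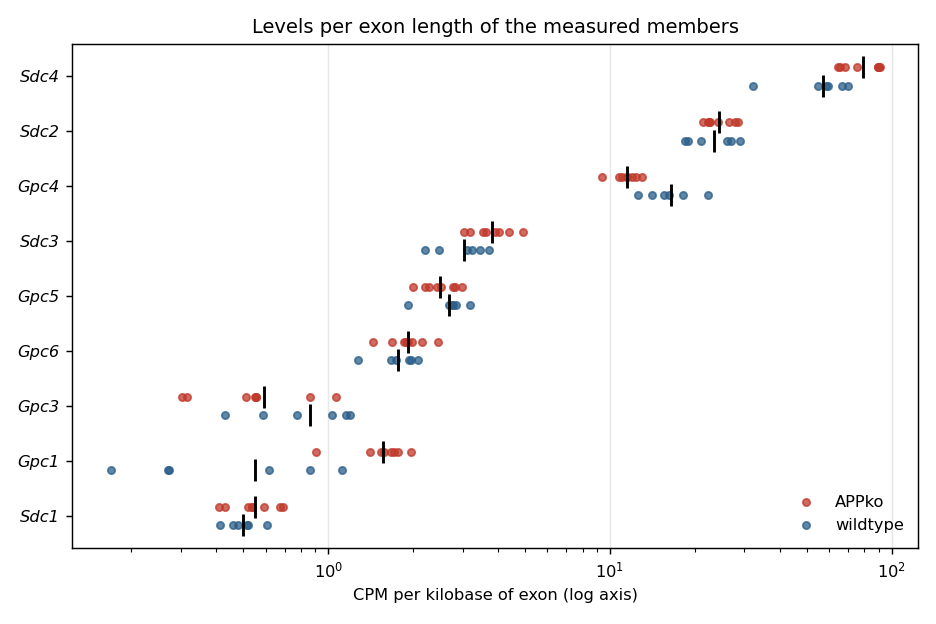
Levels of the 9 measured glypicans and syndecans in CPM per kilobase of exon on a log axis, with 1 point per library (8 APPko, 6 wildtype) and a vertical tick at each mean. Sdc4, Sdc2 and Gpc4 lie above the other genes in both genotypes, Gpc1 lies to the right in APPko and Gpc4 to the left; Gpc2 is not drawn.

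Gpc2, a glypican of developing neurons, had 1 count in all 14 libraries together, out of 339179690 counts. A sum of 0 to 3 counts corresponds to at most 0.00884 CPM over all libraries and, for the smallest library alone, to 0.18 CPM, so Gpc2 was at or under the floor in both genotypes and no difference is given. Its exons share 55.6% of their bases with those of the annotated gene Gm43720 on the same strand, which itself had 2 counts in all libraries, and reads in the shared bases may have been assigned to neither gene. These limits cover counting error only, because amplified reads without molecular identifiers are not independent molecules.

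The glypicans, seen as a family, were dominated by Gpc4. It made up 63.5 ± 1.47% of the summed glypican level per kilobase in APPko libraries and 73.2 ± 5.43% in wildtype libraries. The share of Gpc1 was 8.77 ± 1.88% in APPko libraries and 2.60 ± 1.98% in wildtype libraries. The summed glypican level was 18.0 ± 1.54 CPM per kilobase in APPko libraries, with a range of 15.5 to 20.3, and 22.4 ± 2.99 in wildtype libraries, with a range of 19.4 to 27.4.

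The syndecans were dominated by Sdc4, with 73.1 ± 3.20% of the family's level in APPko libraries and 67.1 ± 8.26% in wildtype libraries. Their summed level was 108 ± 13.1 CPM per kilobase in APPko libraries, with a range of 90.7 to 125, and 83.9 ± 12.8 in wildtype libraries, with a range of 61.7 to 96.7. Sdc1 stayed under 1% of the family in every library. The summed levels of the 2 families thus lay on opposite sides of their wildtype values, with overlapping ranges in both.

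The genotype comparison asks what loss of the amyloid precursor protein does to gene expression in the dentate gyrus. Because this contrast was known when the genes were chosen, the members' differences and calls are a description. No p-value over the members as a set is given. Of the 9 tested members, 1 was called higher in APPko (Gpc1) and 1 lower (Gpc4) at an adjusted p under 0.05 over all genes by edgeR's quasi-likelihood test, where 0.944% of all tested genes were called higher and 1.41% lower. The members' median log2 change was 0.11, beside -0.01 over all tested genes. For no member did the genotypes lie apart without overlap, which was the case for 1.115% of all tested genes.

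**Figure D2:**
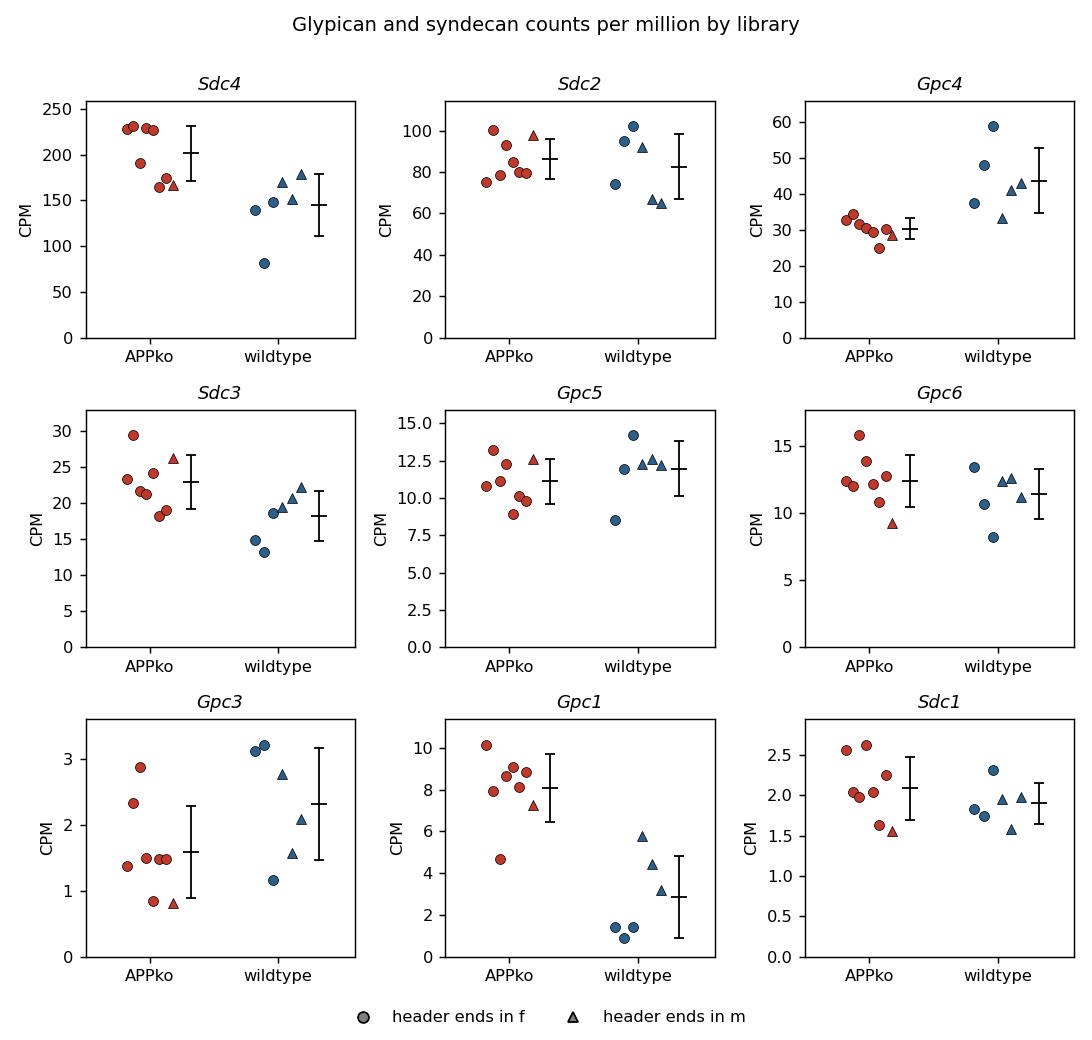
CPM of the 9 measured members in every library, APPko left of wildtype, with circles for libraries whose header ends in f and triangles for m, and bars for the mean and SD (n = 8 and 6). 7 of 8 APPko libraries lie above every wildtype library for Gpc1 and 7 of 8 lie below every wildtype library for Gpc4, and the 3 wildtype f libraries are the lowest of all for Gpc1.

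Gpc1 (ENSMUSG00000034220.7, chromosome 1, 92831645 to 92860779, plus strand, GRCm38) encodes glypican-1, a glypican of neurons in the adult rodent brain. It had 4.68 CPM in the lowest, 8.38 in the median and 10.2 in the highest APPko library, against 0.873, 2.29 and 5.78 CPM in the lowest, median and highest wildtype library. 7 of 8 APPko libraries exceeded every wildtype library, and the exception, APPko library 3 with 4.68 CPM, lay above 5 of 6. The means were 8.09 ± 1.63 CPM in APPko libraries and 2.85 ± 1.97 CPM in wildtype libraries (SD, n = 8 and 6), a 2.82-fold difference with a log2 change of 1.49 (SE 0.33, 95% interval 0.80 to 2.18). The counts behind these values were 104 to 258 per APPko library and 19 to 171 per wildtype library, few enough that counting error is a visible part of the spread.

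The level of Gpc1 split by header suffix in wildtype libraries. The 7 APPko f libraries had 4.68 to 10.2 CPM, against 1.399, 0.873 and 1.396 CPM in the 3 wildtype f libraries. The APPko m library had 7.26 CPM, against 5.78, 4.45 and 3.19 CPM in the 3 wildtype m libraries. The APPko f libraries and the single APPko m library thus lay above the wildtype libraries of their suffix, but by different amounts. The log2 change was 2.75 (SE 0.27) among f libraries alone and 0.75 (SE 0.39) among m libraries alone. The m value has 1 APPko library with no spread of its own, assumed to vary like the others.

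How large the Gpc1 difference appears therefore rests on the wildtype f libraries. Without wildtype libraries 2 and 3 the log2 change was 1.11, and without all 3 wildtype f libraries it was 0.85. Neither of these passed the threshold over all genes, while the sign was positive in all 28 alternatives. The fit without wildtype f libraries set 7 f and 1 m APPko libraries against 3 m wildtype libraries. Genotype and suffix largely coincide in that fit and cannot be told apart. Leaving out single libraries gave 1.31 to 1.85 and kept the call in 6 of 14 cases.

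2 measured properties of Gpc1 bear on how its counts can be read. Its exons have 59.1% G and C, more than 95.2% of tested genes, and with a trend over GC content removed its log2 change was 1.27 and still called. 18.9% of its exon bases overlap the gene Ankmy1 on the opposite strand, and whether the counting used strand is not given in the sources used here, so reads there may belong to either gene or may have been left uncounted. Ankmy1 itself had 4 to 9 counts per APPko library and 0 to 7 per wildtype library, too few to be tested.

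Gpc4 (ENSMUSG00000031119.4, chromosome X, 52053021 to 52165252, minus strand) was the member called lower. It had 24.9 CPM in the lowest, 30.5 in the median and 34.5 in the highest APPko library, against 33.4, 42.1 and 59.0 CPM in the lowest, median and highest wildtype library. 7 of 8 APPko libraries lay below every wildtype library, the exception being APPko library 2 with 34.5 CPM. The means were 30.3 ± 2.89 CPM in APPko libraries and 43.7 ± 9.01 CPM in wildtype libraries (SD, n = 8 and 6), a log2 change of -0.53 (SE 0.12, 95% interval -0.77 to -0.28). The wildtype libraries spread more widely than the APPko libraries, at 20.6% of their mean against 9.53% in APPko.

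The highest Gpc4 values belonged to wildtype libraries 2 and 3, the libraries that stood apart, with 48.2 and 59.0 CPM. Without them the log2 change was -0.35 and not called. Without all 3 wildtype f libraries it was -0.36, in a fit where genotype and suffix largely coincide. Leaving out single libraries gave -0.59 to -0.41 and kept the call in 5 of 14 cases. The sign was negative in all 28 alternatives.

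The other glypicans did not pass the threshold. Gpc3 (chromosome X, 52272426 to 52613950, minus strand), which lies 107.2 kb from Gpc4 with 0 coding genes between, had 0.814 CPM in the lowest, 1.48 in the median and 2.88 in the highest APPko library, against 1.16, 2.43 and 3.21 CPM in wildtype. Its log2 change was -0.56, similar in size to that of Gpc4, but on 22 to 82 counts per library the 95% interval ran from -1.18 to 0.06. Gpc5 and Gpc6 are also neighbours, on chromosome 14 from 115092215 to 116525179 and from 116925315 to 117976544, both on the plus strand, with a gap of 400.1 kb and 0 coding genes between. Gpc5 averaged 11.1 ± 1.495 CPM in APPko libraries and 12.0 ± 1.86 in wildtype libraries, with a log2 change of -0.11 and a 95% interval of -0.38 to 0.16. Gpc6 averaged 12.4 ± 1.94 CPM in APPko libraries and 11.4 ± 1.86 in wildtype libraries, with a log2 change of 0.11 and a 95% interval of -0.17 to 0.40. Neither neighbouring pair overlaps in exons, and the members of the Gpc5 and Gpc6 pair had changes of opposite sign with intervals that include 0.

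Among the syndecans, Sdc4 (ENSMUSG00000017009.3, chromosome 2, 164424247 to 164443887, minus strand) had the largest difference. It had 165 CPM in the lowest, 209 in the median and 231 in the highest APPko library, against 82.0, 150 and 179 CPM in wildtype. 5 of 8 APPko libraries exceeded every wildtype library, and wildtype library 2 was the lowest of all. The means were 201 ± 30.2 CPM in APPko libraries and 145 ± 34.1 CPM in wildtype libraries, a log2 change of 0.47 (SE 0.15, 95% interval 0.16 to 0.79) that edgeR did not call. It was called by DESeq2, at 0.47, and without an expression filter, at 0.51. The value was 0.34 without wildtype libraries 2 and 3, 0.74 among f libraries alone, where it was called, and 0.07 among m libraries alone.

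Sdc3 (ENSMUSG00000025743.14, chromosome 4, 130792537 to 130826319, plus strand) had 18.2 CPM in the lowest, 22.5 in the median and 29.4 in the highest APPko library, against 13.2, 19.1 and 22.3 CPM in wildtype. Its log2 change of 0.33 (SE 0.14, 95% interval 0.05 to 0.62) was not called, but it was with the header suffix as a covariate, at 0.48, and among f libraries alone, at 0.52. With 58.7% G and C in its exons it lies above 94.5% of tested genes, and once a trend over GC content was removed the change was 0.07. The correction moved Gpc1 from 1.49 to 1.27.

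Sdc2 (chromosome 15, 32920723 to 33034935, plus strand) was nearly level between the genotypes, with 75.4 to 100.4 CPM in APPko libraries and 65.2 to 102 CPM in wildtype libraries. Its log2 change was 0.06 with a 95% interval of -0.18 to 0.30. Sdc1 (chromosome 12, 8771323 to 8793715, plus strand), on 28 to 74 counts per library, averaged 2.09 ± 0.39 CPM in APPko libraries and 1.90 ± 0.25 in wildtype libraries, with a log2 change of 0.13 and a 95% interval of -0.24 to 0.50. None of the 4 syndecans was thus called by edgeR over all libraries. The intervals of Sdc3 and Sdc4 lay above 0 and those of Sdc1 and Sdc2 included it. These intervals are not adjusted for the number of genes tested, and the share of all genes with such intervals is not given here.

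**Figure D3:**
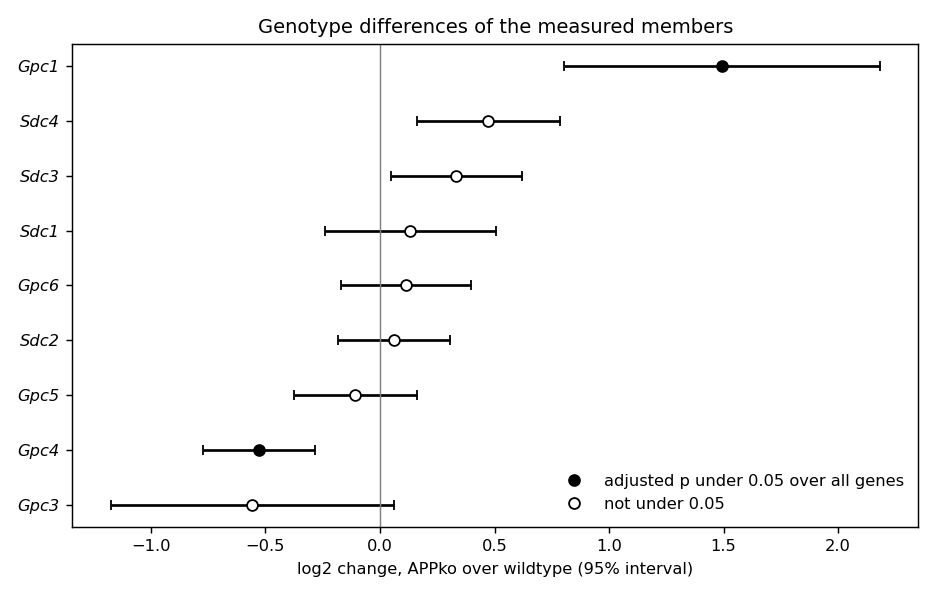
Log2 change of each measured member, APPko over wildtype, with its 95% interval from edgeR; filled points had an adjusted p under 0.05 over all genes. Gpc1 at 1.49 and Gpc4 at -0.53 are filled. Sdc4 and Sdc3 are not filled, although their intervals, which are not adjusted for the number of genes tested, lie above 0.

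The dependence of the 2 called members on single libraries and settings can be read side by side. The calls are a description here too, since the contrast was known when the genes were chosen. DESeq2 gave a log2 change of 1.498 for Gpc1 and -0.54 for Gpc4, and limma's voom with quality weights gave 1.495 and -0.46, all past the threshold. With the header suffix as a covariate the changes were 2.18 for Gpc1 and -0.60 for Gpc4.

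**Figure D4:**
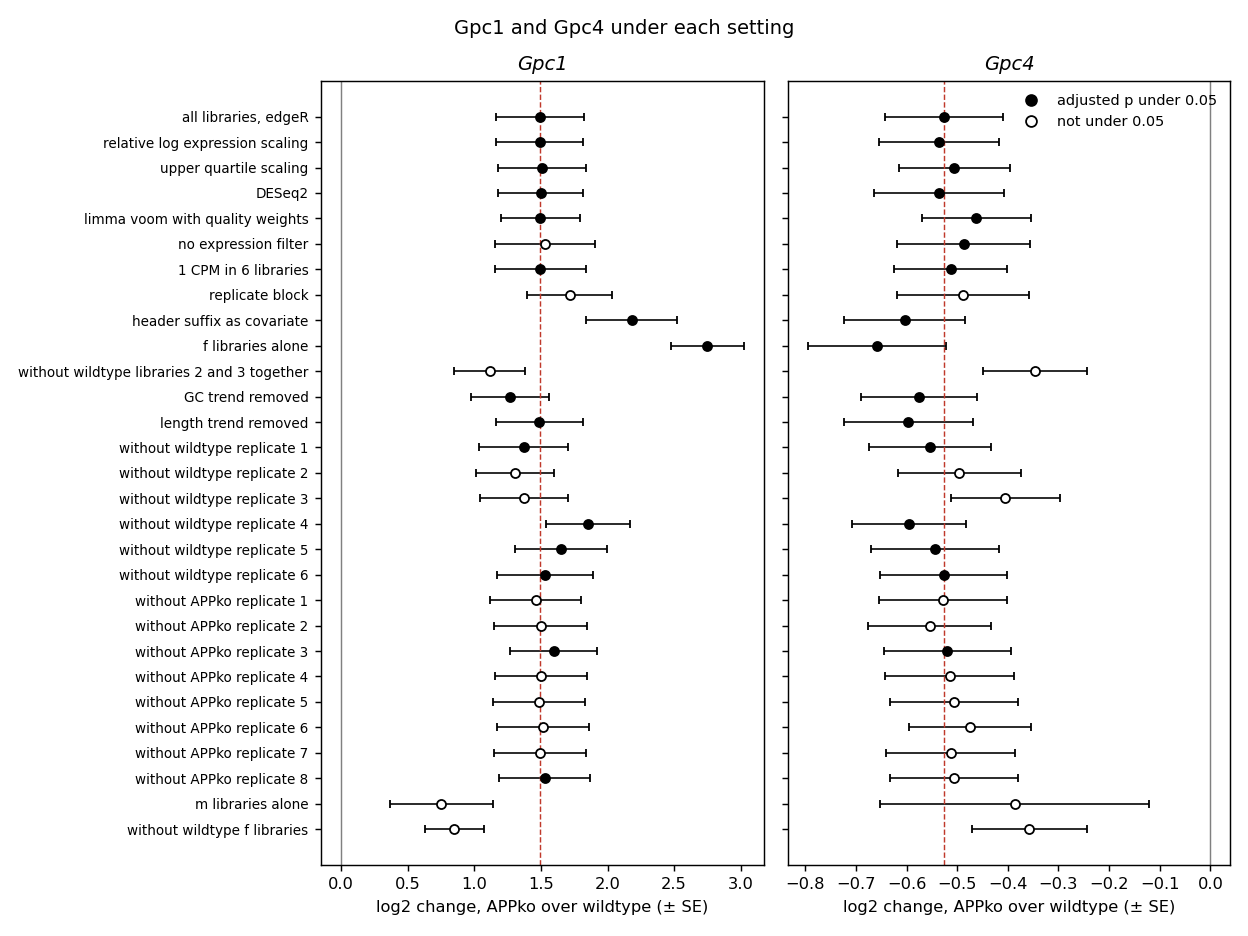
Log2 change of Gpc1 and Gpc4, APPko over wildtype, with its SE, for all libraries and each alternative; filled points had an adjusted p under 0.05 and the dashed line marks the value over all libraries. Every value keeps its sign, and for Gpc1 f libraries alone give the highest value, 2.75, and m libraries alone the lowest, 0.75.

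Within wildtype, f and m libraries could be compared without the genotype contrast, a question raised by the X-linked genes Gpc3 and Gpc4. Over 20812 genes 7 were called, 0.0336%, and no member was among them, with 3 libraries against 3. Gpc1 averaged 1.22 ± 0.30 CPM in f libraries and 4.47 ± 1.29 CPM in m libraries (SD, n = 3 each), a log2 difference of -1.87 (SE 0.36), with an edgeR adjusted p of 0.298. DESeq2 called Gpc1 here, with an adjusted p of 0.0028, in a fit that called 216 genes. Without wildtype library 1 edgeR also called Gpc1, with an adjusted p of 0.0188, in a fit that called 1550 genes. The f libraries of that fit were wildtype libraries 2 and 3 alone, which stood apart in composition. This result thus turns on the tool and on the libraries used. The 10 alternatives to edgeR's value gave adjusted p-values of 0.0028 to 0.871.

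Gpc4 averaged 48.2 ± 10.7 CPM in wildtype f libraries and 39.2 ± 5.12 CPM in wildtype m libraries, a log2 difference of 0.31 with a 95% interval of -0.16 to 0.78. Gpc3 averaged 2.50 ± 1.16 CPM in f libraries and 2.15 ± 0.60 CPM in m libraries, a log2 difference of 0.21 with a 95% interval of -0.76 to 1.18. Sdc4 differed by -0.42 and Sdc3 by -0.41, both with intervals that include 0. A difference between f and m was therefore not detectable for either X-linked glypican with these 6 libraries.

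The genotype difference itself was also compared between f and m libraries. In a fit with genotype, suffix and their interaction, 1.86% of all tested genes were called for the interaction. For Gpc1 the f difference exceeded the m difference by 2.06 on the log2 scale (SE 0.49, 95% interval 1.02 to 3.10). This is a description only, since it reuses the genotype contrast known when the genes were chosen and its m difference rests on 1 APPko library, assumed to vary like the others. The interval of Sdc4, not adjusted for the number of genes tested, ran from 0.04 to 1.43, and those of the other 7 tested members included 0.

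The members also varied among libraries of the same genotype, which the choice of genes did not use. Over the 14 libraries the deviations of log2 CPM from the genotype means correlated best for Sdc3 and Sdc4 (Pearson r = 0.71, or 0.59 without wildtype libraries 2 and 3) and were most opposed for Gpc1 and Gpc4 (r = -0.51, or -0.31 without those libraries). Over all 14 libraries these are the ends of the range of the 36 pairs. Without those libraries the highest pair was Gpc5 and Sdc3, at 0.64, and the most opposed was Gpc1 and Gpc3, at -0.35. The points share library and composition, so the correlations describe these libraries only.

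Because Sdc3 and Sdc4 correlated best over all 14 libraries, the 250 bases before their RefSeq start sites are shown (RefSeq, GRCm38.p6). The window of Gpc5 is added as a contrast in GC content only. Gpc5 itself correlated with Sdc3, at r = 0.52, or 0.64 without wildtype libraries 2 and 3. RefSeq windows were matched for 7 of the 10 members, all but Gpc1, Gpc6 and Sdc2. Each is given 5′ to 3′ on the gene's strand, and capitals mark GGGCGG, a core often bound by Sp factors, or its reverse complement CCGCCC, and TATAAA or its reverse complement TTTATA.
Sdc4, chr2:164443189-164443438, minus strand: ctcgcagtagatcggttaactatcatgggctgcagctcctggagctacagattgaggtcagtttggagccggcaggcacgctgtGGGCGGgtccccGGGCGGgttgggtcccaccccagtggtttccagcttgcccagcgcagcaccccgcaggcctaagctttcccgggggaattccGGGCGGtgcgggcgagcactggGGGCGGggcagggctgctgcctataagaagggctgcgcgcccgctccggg
Sdc3, chr4:130792287-130792536, plus strand: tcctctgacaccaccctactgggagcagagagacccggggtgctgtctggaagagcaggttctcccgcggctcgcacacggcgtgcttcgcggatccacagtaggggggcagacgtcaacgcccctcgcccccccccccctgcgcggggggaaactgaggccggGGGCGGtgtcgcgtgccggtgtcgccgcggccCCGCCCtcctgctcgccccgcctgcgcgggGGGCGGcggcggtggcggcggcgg
Gpc5, chr14:115091965-115092214, plus strand: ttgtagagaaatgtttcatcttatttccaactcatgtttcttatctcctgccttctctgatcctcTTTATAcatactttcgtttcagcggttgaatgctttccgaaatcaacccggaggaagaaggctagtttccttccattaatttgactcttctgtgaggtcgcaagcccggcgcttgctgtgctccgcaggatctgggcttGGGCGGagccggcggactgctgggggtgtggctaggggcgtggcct

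The Sdc4 window held 4 matches to GGGCGG on either strand and the Sdc3 window held 3, against 1 in that of Gpc5. The number does not set the pair apart, since the windows of Gpc2, Gpc3 and Sdc1 also held 3 each, and that of Gpc4 held 1. At least 1 match was present in 32.7% of 32851 RefSeq windows of the same length. The windows had 68% G and C for Sdc4, 76.4% for Sdc3 and 51.2% for Gpc5, beside a median of 52.4% over all windows. Gpc5 alone of the 7 matched members held TATAAA on either strand, a motif found in 12.4% of all windows. A match describes the letters only.

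The genes whose deviations were most like each member's were sought among 10880 genes with a mean of at least 5 CPM. For Gpc1 they were Map1lc3a, the autophagosome protein LC3A, and Yif1b, a protein of endoplasmic reticulum to Golgi transport, both with r = 0.95, followed by the pseudogene Gpx4-ps2 with r = 0.95. For Gpc4 they were Cdk6, a cell cycle kinase, with r = 0.92, the acetyltransferase gene Crebbp with r = 0.91 and the matrix protein gene Tgfbi with r = 0.86. For Sdc2 they were the lysosomal membrane gene Lamp2 with r = 0.98, the myelin gene Pmp22 with r = 0.97 and the MHC-related gene Mr1 with r = 0.96. Without wildtype libraries 2 and 3 the values for Gpc4 were 0.88 with Cdk6, 0.81 with Crebbp and 0.85 with Tgfbi. The named genes had the highest correlations among the 10880 candidates, so high values are partly set by that choice. No gene was named for more than 1 of these 3 members, and with so many candidates this says little.

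Sdc4 followed Inpp5k, an inositol phosphatase gene, with r = 0.92, Zfp646 with r = 0.92 and the G protein gene Gnai2 with r = 0.92, but without wildtype libraries 2 and 3 each correlation was 0.81. Sdc3 followed Arpc1b, a subunit of the actin-nucleating Arp2/3 complex, with r = 0.88, Fbxo2 with r = 0.87 and the transcription factor gene Usf1 with r = 0.87. Gpc5 followed Dhrs4 with r = 0.90, Cmtm5 with r = 0.89 and Lin7b with r = 0.89. Gpc6 followed Lrba with r = 0.88 and the matrix genes Vcan and Lama4, both with r = 0.85. Without wildtype libraries 2 and 3 the values for Gpc6 were 0.82 with Lrba, 0.76 with Vcan and 0.85 with Lama4. Gpc3 followed Pard6g with r = 0.89, Acot1 with r = 0.81 and Tmem130 with r = 0.79. Sdc1 had the loosest companions, Rrp8 with r = 0.79, Lsg1 with r = 0.77 and Lcp1 with r = 0.76. With 14 libraries that share composition, no p-value is attached to these values.

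The genes that build and decorate the heparan sulfate chains were counted from lists of the pathway. Of 16 chain synthesis genes, all tested, 0 were higher and 1 was lower in APPko, with a list median log2 change of 0.03. By the same edgeR test 0.944% of all tested genes were higher and 1.41% lower. The gene that fell was B4galt7, the galactosyltransferase that adds the first galactose of the linker between core protein and chain, with 17.7 ± 2.06 CPM in APPko libraries and 29.5 ± 12.7 CPM in wildtype libraries (log2 change -0.74, SE 0.19, edgeR adjusted p = 0.0458). The chain polymerases Ext1 and Ext2 had log2 changes of -0.10 and 0.01 and were not called. Without wildtype libraries 2 and 3 B4galt7 was at -0.41 and not called, and it kept its call in 3 of the 14 fits that left out a library. DESeq2 called 1 gene of this list higher and 3 lower, beside 749 higher and 1052 lower of all 22150 tested genes.

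Of 21 genes for chain modification and release, 18 were tested, with a list median of -0.02. Among them 0 were higher and 2 were lower, beside 0.944% and 1.41% of all tested genes. Hs3st5, a 3-O-sulfotransferase, had 1.34 to 2.41 CPM in APPko libraries and 2.10 to 3.58 CPM in wildtype libraries (log2 change -0.77, SE 0.18, edgeR adjusted p = 0.0336). Ndst3, an N-deacetylase and N-sulfotransferase, had 11.2 ± 4.13 CPM in APPko libraries and 20.01 ± 4.33 CPM in wildtype libraries (log2 change -0.84, SE 0.22, edgeR adjusted p = 0.0495). The extracellular sulfatase gene Sulf2 had a log2 change of 0.04 with a 95% interval of -0.21 to 0.30. Without wildtype libraries 2 and 3 Hs3st5 was at -0.67 and Ndst3 at -0.84, neither of them called, so the call of Ndst3 was lost without a smaller change. With single libraries left out Hs3st5 kept its call in 6 of 14 fits and Ndst3 in 2. Over the 28 alternatives the log2 change of Hs3st5 ran from -0.95 to -0.12. DESeq2 called 0 genes of this list higher and 3 lower, beside 749 higher and 1052 lower of all 22150 tested genes.

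Of 10 other proteoglycans that can carry heparan sulfate, all tested, 0 were called by edgeR or DESeq2, and the list median was 0.16. The smallest p belonged to Spock3, a testican, with 164 ± 27.9 CPM in APPko libraries and 223 ± 75.2 CPM in wildtype libraries (log2 change -0.44, edgeR adjusted p = 0.149). edgeR called it with the header suffix as a covariate (adjusted p = 0.0499) and among f libraries alone (adjusted p = 0.0173). Agrn, the agrin gene, had a log2 change of 0.26 and was not called.

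Of 25 partners of glypicans and syndecans, all tested, 1 was higher and 4 were lower, with a list median of -0.07. Among all tested genes edgeR called 0.944% higher and 1.41% lower. Ptprs, whose receptor phosphatase binds heparan sulfate, rose to 204 ± 9.54 CPM in APPko libraries, against 145 ± 20.8 CPM in wildtype libraries (log2 change 0.49, SE 0.10, edgeR adjusted p = 0.023). APPko libraries ran from 194 to 220 CPM and wildtype libraries from 121 to 179 CPM, without overlap, but with a trend over GC content removed the log2 change was 0.19 and not called. Lrrtm3, a postsynaptic adhesion gene, fell to 17.2 ± 3.18 CPM in APPko libraries, against 28.8 ± 3.22 CPM in wildtype libraries (log2 change -0.75, SE 0.13, edgeR adjusted p = 0.016). Its ranges, 10.96 to 20.2 CPM in APPko and 24.7 to 33.4 CPM in wildtype, did not overlap either. Such ranges were seen for 1.115% of all tested genes. Lrrtm3 kept its call in each of the 14 fits that left out a library, where Ptprs kept it in 11.

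Lrrtm4, the adhesion partner of Gpc4, fell to 87.7 ± 18.0 CPM in APPko libraries, against 160 ± 66.8 CPM in wildtype libraries (log2 change -0.87, SE 0.20, edgeR adjusted p = 0.033), and so lay on the same side as Gpc4. Adam10, a sheddase of membrane proteins including APP, had a log2 change of -0.48 (edgeR adjusted p = 0.0443), and Robo2, a Slit receptor whose ligands bind heparan sulfate, had -0.46 (edgeR adjusted p = 0.0466). These 2 were named after their values were seen. Over the 28 alternatives the log2 change ran from -0.71 to -0.07 for Adam10 and from -0.55 to -0.06 for Robo2. With a trend over GC content removed, 0 partners were called higher and 1 lower, beside 85 higher and 109 lower of all 22150 tested genes. With single libraries left out Lrrtm4 kept its call in 4 of 14 fits and Adam10 and Robo2 in 3 each. The number of partners called in those fits ranged from 1 to 8, while 38 to 1436 of all tested genes were called. DESeq2 called 2 partners higher and 8 lower, beside 749 higher and 1052 lower of all 22150 tested genes. The intracellular partners Sdcbp (syntenin) and Cask had log2 changes of -0.44 and -0.24 without a call, and Gpr158, a receptor of Gpc4, had 0.03. Without wildtype libraries 2 and 3 none of the genes in these 4 pathway lists was called by edgeR, with Lrrtm3 at -0.72 (edgeR adjusted p = 0.0568), Lrrtm4 at -0.54 and Ptprs at 0.39.

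**Figure D5:**
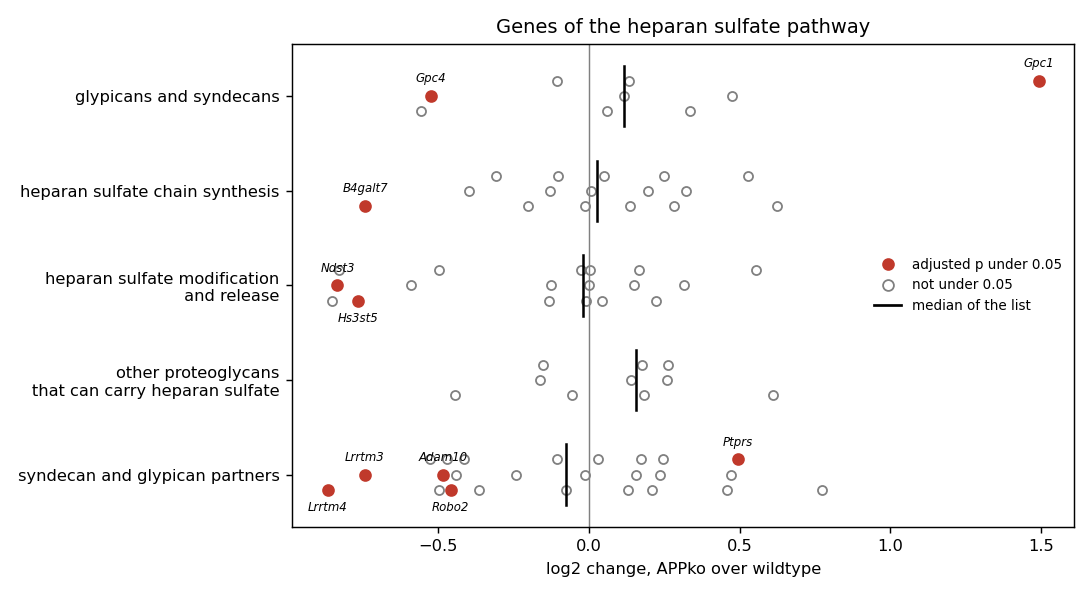
Log2 change, APPko over wildtype, of each tested gene of the glypicans and syndecans and of 4 lists of the heparan sulfate pathway; filled points had an adjusted p under 0.05 over all genes and the vertical bars are list medians. The list medians lie between -0.07 and 0.16, and the called genes are Gpc1 and Ptprs on the higher side and Gpc4 with 7 list genes on the lower side.

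Markers of the cell types in the tissue were read beside these values. Their calls are to be set beside the 0.944% of all tested genes called higher and the 1.41% called lower by edgeR. The summed level of 11 microglia markers was 697 to 1221 CPM in APPko libraries and 505 to 962 CPM in wildtype libraries, with 2 called higher (Tyrobp and C1qb). The summed level of 12 dentate granule cell markers was 630 to 1075 CPM in APPko libraries and 898 to 1547 CPM in wildtype libraries, with 3 called lower (C1ql3, Rfx3 and Npy1r). 12 astrocyte markers summed to 5895 to 8766 CPM in APPko libraries and 6670 to 9163 CPM in wildtype libraries, with 1 called higher (Ntsr2).

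The remaining lists held no called gene. The sums were 652 to 1113 CPM in APPko libraries and 591 to 1605 CPM in wildtype libraries for 10 oligodendrocyte markers, and 94.97 to 158 CPM in APPko and 105 to 162 CPM in wildtype for 9 markers of their precursors. They were 89.7 to 166 CPM in APPko and 112 to 204 CPM in wildtype for 12 endothelial and mural markers, and 60.6 to 95.7 CPM in APPko and 37.6 to 130 CPM in wildtype for 12 fibroblast markers. Choroid plexus and ependymal markers summed to 2.14 to 5.89 CPM in APPko and 2.20 to 5.74 CPM in wildtype, and 8 mossy cell and CA field markers to 441 to 650 CPM in APPko and 382 to 965 CPM in wildtype. No listed marker was at 0 in all libraries, and the part of cell composition in the members' differences was not tested.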

How the data were processed

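The authors deposited 1 table of raw read counts per library, with gene symbols as rows. The submitters' processing notes name featureCounts 2.0.1, STAR 2.7.8a, cutadapt 3.5 and the build GRCm38 (mm10). Other values deposited and used were the start and end positions of the authors' gene annotation, GENCODE M25 per the file headers. How strand and multi-mapping reads were treated is not given in the sources used here. Per the labels' protocols, cDNA was amplified over 12 cycles and libraries over 10 further cycles, and 151 bp pairs were read.

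Genotypes were taken from the titles and the f or m suffix from the column headers. No pair of libraries of a genotype agreed within sampling noise (43 pairs, with chi-square values of 8.66 to 108 per degree of freedom). Low genes were removed by filterByExpr, libraries were scaled by TMM, and the genotypes were compared with the quasi-likelihood test of edgeR (robust dispersions), adjusted by Benjamini-Hochberg at 0.05 over all tested genes; standard errors were derived from the F statistic. CPM values are TMM-scaled, and levels per kilobase use the union of exons. R 4.3.3, edgeR 4.0.16, limma 3.58.1 and DESeq2 1.42.0 were used, and the fit was tested on simulated data. GC content was known for 99.9% of tested genes; trends were removed with a lowess span of 0.3. Likeness is Pearson's r of log2 CPM deviations (prior count 2).

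The members and gene lists were chosen with earlier results of these data known. Named genes are all members, App, from each pathway list at most 3 called genes by smallest p or, with none called, the gene with the smallest p, and 3 genes per member by likeness. The other list and marker genes were named as background or after their values were seen. Alternatives were other scalings, tools, filters and covariates, a replicate block, GC and length offsets, and left-out libraries; m libraries alone, the fit without wildtype f libraries and the interaction were added after the data were seen.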

Additional observations from a re-analysis of the deposited data

Results flagged for a closer look

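The APPko minus wildtype log2 difference of Gpc1 was larger in f than in m libraries by 2.06 (SE 0.49), a difference between groups under the same contrast. The value is a description, since the m difference has 1 APPko library and the genotype contrast was known when the genes were chosen. Gpc1 had 8.21 ± 1.72 CPM in APPko f libraries (SD, n = 7) and 1.22 ± 0.30 CPM in wildtype f libraries (SD, n = 3), and it had 7.26 CPM in the APPko m library and 4.47 ± 1.29 CPM in wildtype m libraries (SD, n = 3). The lower value therefore stood in the wildtype f libraries, 2 of which also stood apart in composition, and the part of that in the result was not tested. No library of a member stood apart within a genotype by Dixon's criterion in the 18 groups examined, where chance flags about 1 in 20.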

How the results depend on the processing

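Gpc1 and Gpc4 kept their sign in all 28 alternatives, and each stayed past the threshold in 15 of them. Gpc1 was no longer called without an expression filter (log2 change 1.53), under the replicate block (1.72), without wildtype libraries 2 and 3 (1.11), in m libraries alone (0.75) and without wildtype f libraries (0.85). Gpc4 was no longer called under the replicate block (-0.49), without wildtype libraries 2 and 3 (-0.35), in m libraries alone (-0.39) and without wildtype f libraries (-0.36). Leaving out single libraries gave 1.31 to 1.85 for Gpc1 and -0.59 to -0.41 for Gpc4, and the calls lost there include those without wildtype library 2 or 3 and without APPko library 1, 2, 4, 5, 6 or 7, with Gpc4 also lost without APPko library 8. The number of members called, 2 over all libraries, was 3 by DESeq2 (with Sdc4), 3 with the suffix as a covariate (with Sdc3), 4 in f libraries alone (with both), 0 under the replicate block, without wildtype libraries 2 and 3, in m libraries alone and without wildtype f libraries, and 0 to 2 with single libraries left out.

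The number of genes called, 521, was 1801 by DESeq2, 20 under the replicate block, 1446 with the suffix as a covariate, 3672 in f libraries alone, 35 without wildtype libraries 2 and 3, 194 and 346 with GC and length trends removed, 19 in m libraries alone, 44 without wildtype f libraries, and 38 to 1436 with single libraries left out. Of f against m in wildtype, 7 genes were called, 216 by DESeq2 and 5 to 1550 with single libraries left out. Correlations of same-numbered libraries were -0.34 to 0.19, which gives no clear sign that the replicate numbers pair the libraries but cannot exclude it. The block fit used 12 libraries and left out APPko libraries 7 and 8, the latter being the only APPko m library. It therefore differs from the fit over all libraries in its libraries as well as in degrees of freedom. The fit without wildtype f libraries held only m libraries on the wildtype side, so genotype and suffix largely coincide in it.

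Changes of sign were seen in m libraries alone for B4galt7 (0.019), Gpc5 (0.090), Gpc6 (-0.32) and Sdc1 (-0.18), for Gpc6 without wildtype libraries 2 and 3 (-0.0025), for Sdc1 with the GC trend removed (-0.059) and for Sdc2 in f libraries alone (-0.10). For f against m, Gpc6 turned with genotype as a covariate (0.055), and leaving out single libraries gave -0.0046 to 0.56 for Gpc3, -0.26 to 0.075 for Gpc5, -0.36 to 0.013 for Gpc6 and -0.030 to 0.18 for Sdc1. The cause was not tested. Few counts limit Gpc3 (22 to 82 per library), Sdc1 (28 to 74) and Gpc1 in wildtype libraries (19 to 171). Gpc2 had 1 count in all libraries, and its shared exon bases may also play a part.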

Other observations

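Aplp1 and Aplp2, the homologues of App that can also bind heparan sulfate, were not called. Aplp1 had 249 ± 24.1 CPM in APPko libraries and 207 ± 33.0 CPM in wildtype libraries (log2 change 0.27, edgeR adjusted p = 0.181). Aplp2 had 429 ± 32.8 CPM in APPko libraries and 429 ± 66.1 CPM in wildtype libraries, with a log2 change of -0.0017 and a 95% interval of -0.22 to 0.22.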
